A study of Mus musculus with 20 samples.

Results

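The 9 genes described here, Mbp, Mog, Mag, Mobp, Cnp, Cldn11, Mal, Ugt8a and Opalin, are myelin genes of mature oligodendrocytes. They were chosen by gene symbol, and all 9 were found among the 43346 genes of the count table and passed the filter on low counts. RNA of whole cortex was sequenced in KI mice at 10 months, control mice at 10 months, KI mice at 3 months and control mice at 3 months, with 5 libraries a group and 20 in all. Every animal, controls included, carried the 5xFAD transgenes (5xFAD+/-), which drive amyloid deposition and are expressed in neurons from the Thy1 promoter. KI mice carried the Abca7 p.A693S substitution, written A696S for ABCA7 in the study's design, and control mice had wild-type Abca7. The labels describe heterozygous and homozygous knockin animals without saying which gave a KI library, and they describe the animals as male littermates. No group without 5xFAD is analysed here, so age differences are differences with age in amyloid-bearing cortex. Since the labels do not tie libraries to animals 1 by 1, each p-value given here speaks of variation among libraries.

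Oligodendrocytes wrap axons in compacted membrane, and myelin is rich in cholesterol, in galactolipids and in a small set of abundant proteins. Mbp encodes myelin basic protein, which holds the cytoplasmic faces of the membrane together, and Mobp encodes another small basic protein of the same compartment. Mag and Mog encode immunoglobulin-family proteins, at the inner face toward the axon and at the outermost surface of the sheath. Cnp encodes a phosphodiesterase that keeps cytoplasmic channels in the sheath open. Cldn11 encodes the claudin of the sheath's tight junctions, Mal a lipid-raft protein, and Opalin a membrane protein of late oligodendrocyte differentiation. Ugt8a encodes the enzyme that makes galactosylceramide, the first step specific to the myelin galactolipids. In bulk cortex, fewer oligodendrocytes and less RNA per oligodendrocyte cannot be told apart.

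Promoter windows show how differently these genes begin. RefSeq windows of GRCm38.p6, from 250 bases before to 50 bases after a gene's start, were matched for 8 of the 9 genes. The windows below are those of Mog, Mobp, Mal and Ugt8a, the members with an unadjusted p under 0.05 in a planned contrast, of Mag and Cnp, the closest pair across libraries, and of Opalin, the member of lowest level. Capitals mark exact matches, on either strand, to any of 5 strings searched: ACAAAG and ACAATG (cores bound by SOX factors, a family that includes Sox10), CAGCTG (an E box), TATAAA and GGGCGG (a GC box). Mog lies on the minus strand of chromosome 17, Mal on the minus strand of chromosome 2, Mobp on the plus strand of chromosome 9, Opalin on the minus strand of chromosome 19, Cnp on the plus strand of chromosome 11, Mag on the minus strand of chromosome 7 and Ugt8a on the minus strand of chromosome 3, and each window reads 5′ to 3′ along its gene.
Mog: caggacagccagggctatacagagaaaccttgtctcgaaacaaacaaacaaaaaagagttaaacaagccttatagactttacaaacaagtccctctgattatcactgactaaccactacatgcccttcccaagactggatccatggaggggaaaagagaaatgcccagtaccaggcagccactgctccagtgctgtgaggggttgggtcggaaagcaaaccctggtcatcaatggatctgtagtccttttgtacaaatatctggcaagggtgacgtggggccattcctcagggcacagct
Mal: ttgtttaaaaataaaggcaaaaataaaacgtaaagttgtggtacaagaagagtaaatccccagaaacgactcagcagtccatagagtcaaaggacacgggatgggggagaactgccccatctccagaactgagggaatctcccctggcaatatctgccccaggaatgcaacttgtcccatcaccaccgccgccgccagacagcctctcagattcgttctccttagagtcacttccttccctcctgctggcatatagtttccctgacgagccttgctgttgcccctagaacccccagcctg
Mobp: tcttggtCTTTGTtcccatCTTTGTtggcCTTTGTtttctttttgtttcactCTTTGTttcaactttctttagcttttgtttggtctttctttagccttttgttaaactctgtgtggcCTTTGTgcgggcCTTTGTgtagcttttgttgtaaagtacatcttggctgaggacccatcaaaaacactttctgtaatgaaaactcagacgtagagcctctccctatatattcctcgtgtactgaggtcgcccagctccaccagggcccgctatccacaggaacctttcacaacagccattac
Opalin: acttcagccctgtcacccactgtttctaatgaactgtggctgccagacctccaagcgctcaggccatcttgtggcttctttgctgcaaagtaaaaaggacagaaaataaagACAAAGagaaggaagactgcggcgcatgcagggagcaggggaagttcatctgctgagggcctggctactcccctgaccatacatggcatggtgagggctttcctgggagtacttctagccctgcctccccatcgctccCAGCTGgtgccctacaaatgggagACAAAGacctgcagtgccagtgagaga
Cnp: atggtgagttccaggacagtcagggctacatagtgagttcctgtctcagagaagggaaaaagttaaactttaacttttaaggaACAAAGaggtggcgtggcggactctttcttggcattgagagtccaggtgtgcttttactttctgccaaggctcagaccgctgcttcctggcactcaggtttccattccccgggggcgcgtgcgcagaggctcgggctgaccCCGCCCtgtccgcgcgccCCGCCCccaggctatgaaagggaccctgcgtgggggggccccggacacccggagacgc
Mag: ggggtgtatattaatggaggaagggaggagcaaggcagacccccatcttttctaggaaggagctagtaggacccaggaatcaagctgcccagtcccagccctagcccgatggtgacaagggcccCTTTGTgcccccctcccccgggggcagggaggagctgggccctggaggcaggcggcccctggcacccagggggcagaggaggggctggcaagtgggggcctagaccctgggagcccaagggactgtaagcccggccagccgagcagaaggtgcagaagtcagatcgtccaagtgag
Ugt8a: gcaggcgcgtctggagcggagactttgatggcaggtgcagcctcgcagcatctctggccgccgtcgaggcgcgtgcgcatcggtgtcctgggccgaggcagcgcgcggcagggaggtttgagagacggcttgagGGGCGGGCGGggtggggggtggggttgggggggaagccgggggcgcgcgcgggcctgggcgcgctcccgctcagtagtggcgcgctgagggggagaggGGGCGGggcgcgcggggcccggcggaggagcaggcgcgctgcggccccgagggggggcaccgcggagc
The window of Mog covers chr17:37023349-37023648 and that of Mal chr2:127656646-127656945, and neither holds a match to any of the 5 strings. The window of Mobp covers chr9:120149492-120149791 and holds 6 matches to ACAAAG. The window of Opalin covers chr19:41077064-41077363, with 2 matches to ACAAAG and 1 to CAGCTG. The window of Cnp covers chr11:100574689-100574988, with 1 match to ACAAAG and 2 to GGGCGG. The window of Mag shown, 1 of 3 in the table for that gene, covers chr7:30914814-30915113 and has 1 match to ACAAAG, as has a second, while the third, chr7:30914272-30914571, has none. The window of Ugt8a covers chr3:125938603-125938902, has 3 matches to GGGCGG, 2 of which overlap, and is 78.3% G and C, against 43.3% for Mobp.

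Over the 8 genes, ACAAAG was found in 4, GGGCGG in 3 and CAGCTG in 1, and neither ACAATG nor TATAAA was found in any. A gene was counted if any of its windows matched, while the shares that follow are of single windows. Of 32851 promoter windows of that length, 18.7% held ACAAAG, 12.6% ACAATG, 16.3% CAGCTG, 13.6% TATAAA and 35.7% GGGCGG. A match is a description of the letters and not evidence of binding.

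All 9 genes were plainly expressed in every library. Levels compared between genes are per length, as TMM-scaled CPM (the share of a library's counts, scaled to a common total) divided by the deposited gene length in kilobases (CPM per kb). Over the 20 libraries Mbp came first with 149 ± 25.9 CPM per kb (SD, n = 20), followed by Mobp with 91.0 ± 15.3. Mal, at 63.3 ± 10.0, and Cnp, at 58.9 ± 8.47, lay within 1 SD of each other. Mog at 32.6 ± 4.47, Cldn11 at 27.9 ± 4.16 and Mag at 27.5 ± 5.14 likewise formed a middle band with overlapping spreads. Ugt8a at 12.8 ± 2.39 and Opalin at 10.5 ± 1.48 CPM per kb closed the order. This order rests on the deposited length, which exceeds the longest GENCODE transcript for Mbp, Mobp (6481 against 3286 bases), Mag (4072 against 2434) and Cnp. It equals that transcript for Mog, Cldn11 and Mal and is shorter for Ugt8a and Opalin, so positions can change with the length used. Together the 9 genes took 0.269% ± 0.0284 of all counts in KI cortex at 10 months, 0.244% ± 0.0398 in control cortex at 10 months, 0.246% ± 0.0390 in KI cortex at 3 months and 0.247% ± 0.0403 in control cortex at 3 months (SD, n = 5 each). In single libraries that share ran between 0.189% and 0.312%, so the groups differed by less than their libraries did.

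Positions are those of the deposited count table, on GRCm38 (mm10). For Mobp, Ugt8a and Opalin they differ in start or end from the GENCODE M21 annotation. Exon bases shared with other genes are from GENCODE M21. Mbp spans chromosome 18, 82475146 to 82585637, and Mog chromosome 17, 37010743 to 37023398. Mag spans chromosome 7, 30899176 to 30914873, and Mobp chromosome 9, 120149742 to 120181484. Cnp lies on chromosome 11, 100574904 to 100591729, Cldn11 on chromosome 3, 31149920 to 31164324, and Mal on chromosome 2, 127633226 to 127656695. Ugt8a lies on chromosome 3, 125865359 to 125938550, and Opalin on chromosome 19, 41062474 to 41077113. Cnp shares 154 exon bases with Dnajc7 on the opposite strand, and the strand setting of the counting is not given in the sources used here. Mobp shares 79 exon bases with Gm38642 on its own strand.

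**Figure D1:**
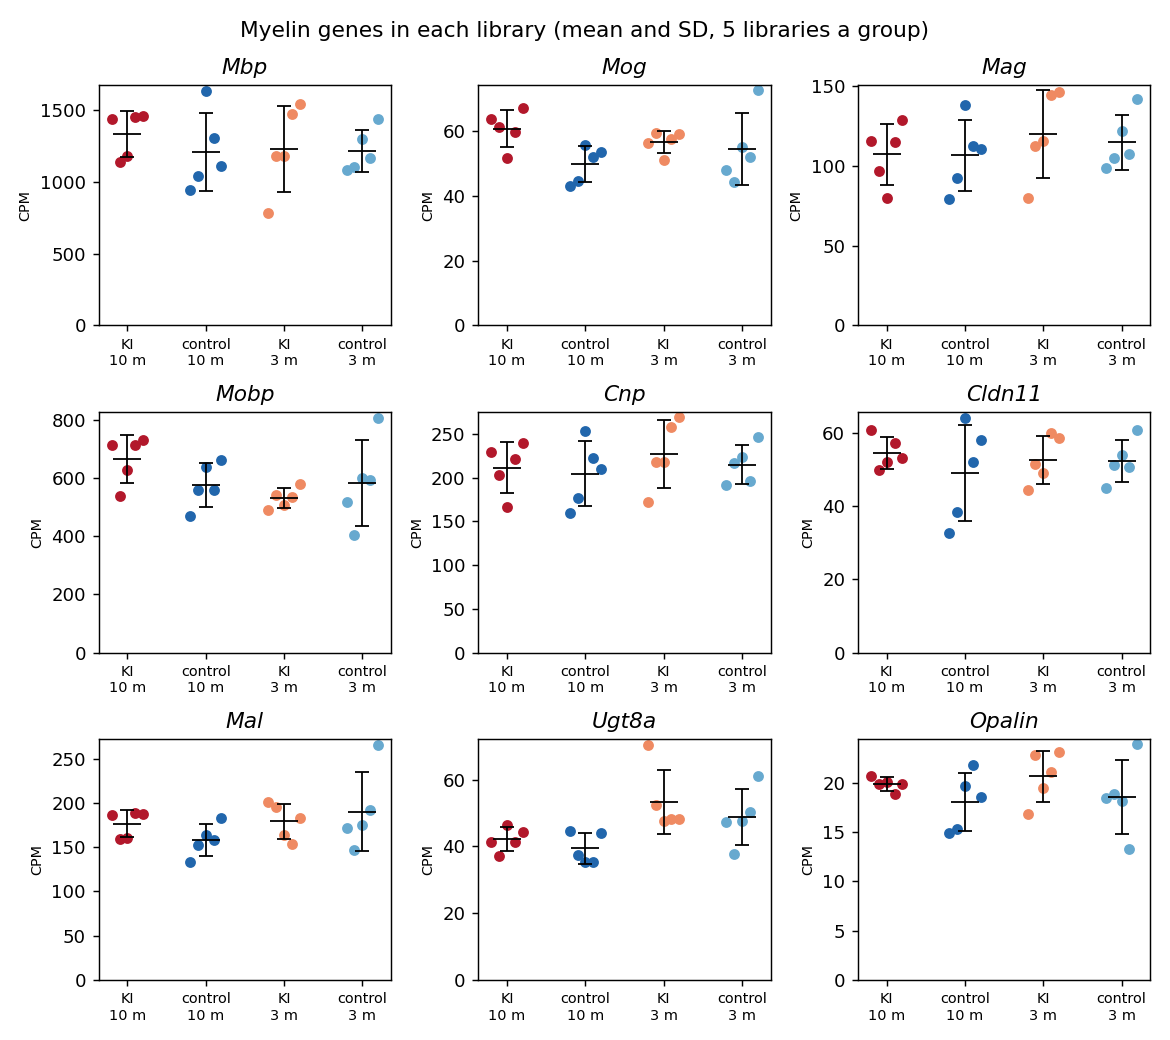
Each panel plots 1 gene in CPM (linear axis from 0), with 1 point per library, the mean as a bar and the SD as whiskers, for KI and control cortex at 10 and at 3 months. Ugt8a in KI libraries at 10 months reaches no higher than 46.5 CPM, below all 5 KI libraries at 3 months, while the groups of the other genes overlap.

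The first comparison asks whether the Abca7 substitution changed the level of the myelin genes. At 10 months none of the 9 genes was called different in KI cortex (edgeR quasi-likelihood test, Benjamini-Hochberg adjustment over 19623 genes, threshold 0.05), against 0.0612% of all tested genes called. Of the 9 genes, 1 (Mog) had an unadjusted p under 0.05, as had 7.86% of all tested genes. DESeq2 called 0 of the 9 with 1 at an unadjusted p under 0.05, and limma-voom called 0 with 3. Of all 19623 genes, 1641 had such a p in DESeq2 and 3060 in limma-voom, and these tools called 58 and 75 genes. All 9 fold changes of the members lay above 0 in edgeR, with a median log2 fold change of 0.14, where all tested genes had a median of 0.00. The genes vary together across libraries, so 9 equal signs are not 9 separate observations.

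Mog was the member with the widest gap between genotypes at 10 months. It stood at 63.7, 61.3, 51.9, 59.8 and 67.3 CPM in the 5 KI libraries, against 43.2, 44.8, 55.7, 52.0 and 53.8 CPM in the 5 control libraries. In 4 of the 5 KI libraries it was above the highest control library, and the remaining KI library, replicate 5, lay inside the control range. The means were 60.8 ± 5.72 CPM in KI and 49.9 ± 5.56 CPM in control cortex (SD, n = 5 each, 2-sided exact permutation p = 0.0317). The model gave a log2 fold change of 0.29 ± 0.11 (SE) with an adjusted p of 0.495, so Mog did not pass the threshold. That exact p is 1 of 36, from 9 genes in 4 comparisons, of which 4 were under 0.05; they are unadjusted, and the smallest that 252 assignments of 5 against 5 libraries allow is 0.00794.

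The other members differed less between genotypes at 10 months. Mobp averaged 666 ± 81.4 CPM in KI and 578 ± 75.7 CPM in control cortex, a log2 fold change of 0.20 with a 95% interval of -0.07 to 0.48. Mal averaged 176 ± 15.3 CPM in KI and 158 ± 18.3 CPM in control cortex, with an interval of -0.09 to 0.41. Mbp averaged 1336 ± 159 CPM in KI and 1209 ± 272 CPM in control cortex, with an interval of -0.18 to 0.47. For Mag the means were 107 ± 19.2 CPM in KI and 107 ± 22.4 CPM in control cortex, with an interval of -0.33 to 0.35.

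At 3 months none of the 9 genes was called, against 0.0255% of all tested genes, and 0 had an unadjusted p under 0.05, against 3.8% of all tested genes. DESeq2 called 0 of the 9 with 0 at an unadjusted p under 0.05, and limma-voom called 0 with 1 at an unadjusted p under 0.05. Of all 19623 genes, 787 had such a p in DESeq2 and 1707 in limma-voom, and each tool called 12 genes. Here 7 of the 9 fold changes were above 0 and the median was 0.06, against a median of 0.01 over all genes. The largest fold change was that of Opalin, which averaged 20.7 ± 2.59 CPM in KI and 18.6 ± 3.75 CPM in control cortex (log2 fold change 0.16 ± 0.13, adjusted p = 1.00 in edgeR). In the 3 month contrast 13 of 13 genes of a thalamic list lay above 0 (median 0.45), with 8 at an unadjusted p under 0.05 and 0 called in edgeR. The part of thalamic tissue in the genotype differences at 3 months, averaged over ages and in the interaction was not tested. Averaged over both ages, none of the 9 was called, against 0.0764% of all tested genes. There 1 had an unadjusted p under 0.05 (Mog, log2 fold change 0.17 ± 0.08), against 6.52% of all tested genes. There DESeq2 called 0 of the 9 with 1 at an unadjusted p under 0.05, and limma-voom called 0 with 4. Of all 19623 genes, 1385 had such a p in DESeq2 and 3063 in limma-voom, and these tools called 49 and 58 genes. The genotype by age interaction had 0 of the 9 called and 0 at an unadjusted p under 0.05, in a contrast where edgeR called 0% of all genes and 4.5% had an unadjusted p under 0.05. DESeq2 called 4 genes in that contrast and limma-voom 3, none of them among the 9. Of the 9, 0 had an unadjusted p under 0.05 in DESeq2 and 1 in limma-voom. Of all 19623 genes, 936 had such a p in DESeq2 and 1841 in limma-voom.

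**Figure D2:**
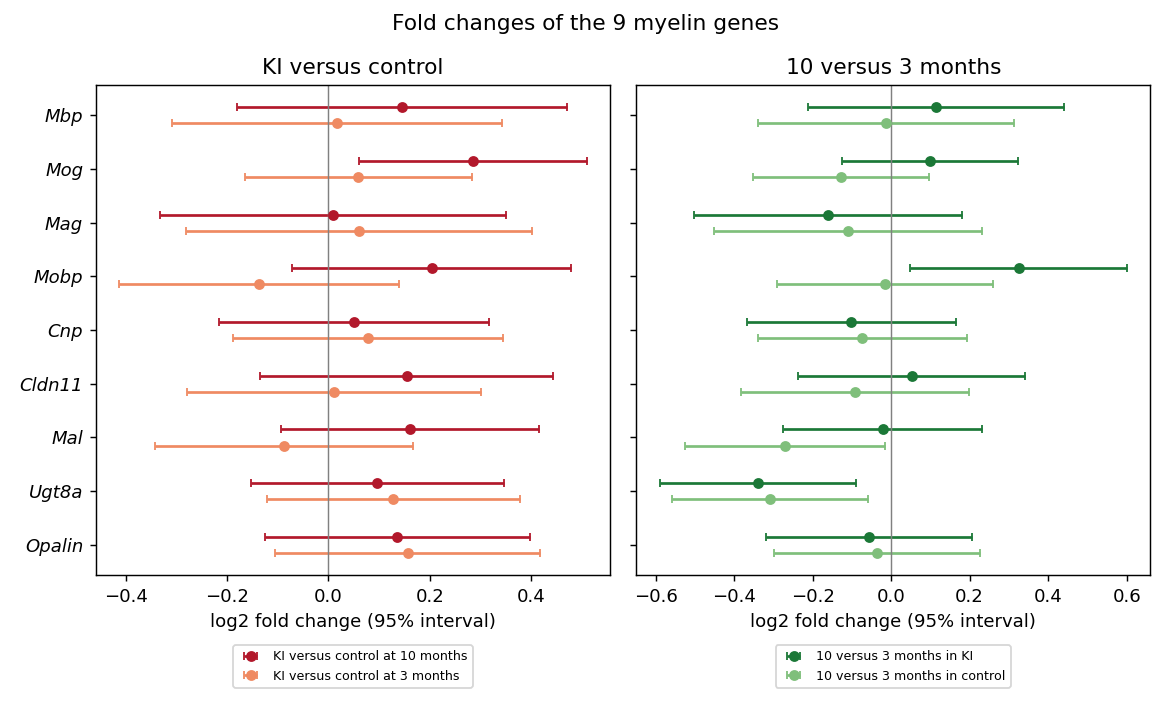
Log2 fold changes of the 9 genes with 95% intervals from edgeR, for KI versus control (left) and for 10 versus 3 months (right), each drawn for 2 settings. Most intervals cross 0; those of Mog for genotype at 10 months, of Mobp for age in KI, of Mal for age in control and of Ugt8a for age in both genotypes do not, though none passed the adjusted threshold.

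The second comparison asks what changed between 3 and 10 months of age, in animals that all carried the amyloid transgenes. Within each genotype, none of the 9 genes was called: 0 of 9 in KI cortex, where 8.06% of all genes were called, and 0 of 9 in control cortex, where 4.07% were. In KI cortex 2 of the 9 had an unadjusted p under 0.05 (Ugt8a and Mobp), and in control cortex 2 did (Ugt8a and Mal), where 21.2% of all tested genes did in KI and 13.6% in control cortex. DESeq2 called 1 of the 9 in KI (Ugt8a, adjusted p = 0.0467), against 10.7% of all genes by the same tool, and 0 in control cortex, with 2 at an unadjusted p under 0.05 in each. Limma-voom called 0 in each, with 2 at an unadjusted p under 0.05 in KI and 1 in control cortex. Of all 19623 genes, 4392 in KI and 2804 in control cortex had such a p in DESeq2. In limma-voom 5885 did in KI and 3923 in control cortex. DESeq2 called 1046 of all genes in control cortex, and limma-voom called 3027 in KI and 1254 in control cortex. The median log2 fold change of the 9 was -0.02 in KI and -0.09 in control cortex, with 4 of 9 above 0 in KI and 0 of 9 in control.

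Ugt8a, the galactosylceramide synthase gene, was lower at 10 months in both genotypes. In KI cortex it stood at 41.3, 37.2, 46.5, 41.2 and 44.4 CPM at 10 months, against 70.3, 52.3, 47.7, 48.1 and 48.3 CPM at 3 months. All 5 KI libraries at 10 months lay below all 5 at 3 months, the single comparison of the 36 in which the groups did not overlap. The share of all tested genes without overlap is not given here, and 21.2% of them had an unadjusted p under 0.05 in this contrast (edgeR). The means of Ugt8a in KI were 42.1 ± 3.55 CPM at 10 months and 53.3 ± 9.67 CPM at 3 months (SD, n = 5 each, exact permutation p = 0.00794, the smallest possible). The log2 fold change was -0.34 ± 0.12 with an adjusted p of 0.0906 in edgeR. In control cortex Ugt8a stood at 44.6, 37.4, 35.4, 35.4 and 44.1 CPM at 10 months, against 47.4, 37.6, 47.5, 50.4 and 61.1 CPM at 3 months. In 3 of the 5 control libraries at 10 months it was below the lowest at 3 months, and the groups overlapped. The means there were 39.4 ± 4.64 CPM at 10 months and 48.8 ± 8.42 CPM at 3 months (exact permutation p = 0.0476), a log2 fold change of -0.31 ± 0.12 with an adjusted p of 0.215.

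After these values were seen, a contrast of age averaged over both genotypes was added to the 6 planned ones. In it Ugt8a fell by 0.32 ± 0.08 on the log2 scale (fold 0.80, 95% interval 0.71 to 0.90, adjusted p = 0.0137 in edgeR), and it was the 1 member of 9 called, against 12.1% of all tested genes. DESeq2, which called 15.5% of all genes, and limma-voom, which called 21.5%, called it too. Since the contrast was chosen because Ugt8a was low in both genotypes, this call is not a test independent of the values above. Without KI replicate 3 at 3 months, the log2 fold change in KI was -0.22 ± 0.11 and the averaged one -0.26 ± 0.07, and the averaged call was kept (adjusted p = 0.0201). Without control replicates 8 and 10 at 3 months, which held thalamic transcripts, the averaged value was -0.28 ± 0.09 and the call was lost (adjusted p = 0.0597). In control cortex alone it was then -0.19 ± 0.14 (adjusted p = 0.723). Leaving out replicate 8 alone gave -0.32 ± 0.13 in control cortex, and leaving out replicate 10 alone gave -0.22 ± 0.12. In both of those fits the averaged call was kept (adjusted p = 0.0215 and 0.0239 in edgeR). Control replicate 10 at 3 months was also the library with the highest mean log2 level of the 9 genes, at 0.37 with each gene centred on its mean. In KI cortex thalamic transcripts were raised in all 5 libraries at 3 months and in none at 10 months, so their part in the KI difference and that of age cannot be told apart here.

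Mobp differed with age in the other direction, in KI cortex. It stood at 713, 539.7, 628, 716 and 732 CPM at 10 months, against 490.1, 542, 509, 535 and 581 CPM at 3 months. In 4 of the 5 KI libraries at 10 months it was above the highest at 3 months, and replicate 4 lay inside the 3 month range. Its log2 fold change was 0.33 ± 0.13 with an adjusted p of 0.152 in edgeR, and the exact permutation p was 0.0238. As for Ugt8a, the part of thalamic transcripts in this KI difference and that of age cannot be told apart. In control cortex Mobp averaged 578 ± 75.7 CPM at 10 months and 584 ± 147 CPM at 3 months, a log2 fold change of -0.02 ± 0.13. The difference between these age effects was 0.34 ± 0.19, with an unadjusted p of 0.0836 and an adjusted p of 1.00 in edgeR.

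Mal, the raft protein gene, averaged 158 ± 18.3 CPM at 10 months and 190.2 CPM at 3 months (147 to 265) in control cortex (log2 fold change -0.27 ± 0.12, adjusted p = 0.324 in edgeR). In KI cortex it averaged 176 ± 15.3 CPM at 10 months and 179 ± 20.2 CPM at 3 months. The compact-myelin gene Mbp averaged 1336 ± 159 CPM at 10 months and 1234 CPM at 3 months (785 to 1543) in KI, and 1209 ± 272 CPM at 10 months and 1219 ± 148 CPM at 3 months in control cortex. For every member but Ugt8a, Mobp and Mal among them, the 95% interval of the averaged age difference included 0, the widest being that of Mag, from -0.38 to 0.11.

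Libraries differed from each other in the same genes. For each gene the group mean was taken out of log2 CPM, and the deviations were correlated over the 20 libraries, an analysis added after the values were seen. Of 36 pairs, 31 correlated positively, and 22 had a permutation p under 0.05 after adjustment over the 36 pairs, all of them positive. Mag and Cnp were closest, with Pearson r = 0.98 and Spearman rho = 0.98 (permutation p = 1e-05 for each, the smallest that 100000 permutations can give), and r = 0.97 without the 2 libraries farthest from the median of Mag. Mbp and Mag had r = 0.95 and rho = 0.96 (permutation p = 1e-05 for each), and r = 0.92 without the 2 libraries farthest in Mbp. Mobp and Mal had r = 0.84 and rho = 0.73 (permutation p = 0.00033 and 0.00083), and r = 0.66 without the 2 libraries farthest in Mobp. All 5 negative pairs involved Ugt8a, the lowest being Cnp and Ugt8a with r = -0.41 and rho = -0.32 (permutation p = 0.0959 and 0.209, adjusted p = 0.138 and 0.279), and r = -0.13 without the 2 libraries farthest in Cnp.

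Base composition moved with this pattern. Across libraries, genes of at least 55% GC were measured against genes of at most 45% GC by the median deviation of each set in log2 CPM, with GC taken from the longest GENCODE transcript. The difference was -0.80 in KI replicate 3 at 3 months, -0.43 in KI replicate 5 at 10 months, -0.30 in control replicate 6 at 10 months and 0.44 in control replicate 8 at 10 months. Mag (57.6% GC) and Cnp (54.8% GC) were the members of highest GC content, and Ugt8a (38.0% GC) the lowest. In KI replicate 3 at 3 months, Mag stood at 79.7 CPM, the lowest of its group, and Ugt8a at 70.3 CPM, the highest of all 20 libraries. In control replicate 8 at 10 months, Mag stood at 138 CPM, the highest of its group, and Ugt8a at 35.4 CPM.

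When a GC trend was fitted in each library and taken out, all 8 pairs with Ugt8a had a higher r than without the correction, while of the 28 other pairs 14 were higher and 14 lower. The correlation of Mbp and Mag became 0.70, that of Mbp and Cnp 0.78 where it had been 0.92, and that of Mbp and Mobp 0.34 where it had been 0.60. The correlation of Cnp and Ugt8a became 0.60, that of Mag and Ugt8a 0.81 where it had been -0.33, and that of Mobp and Ugt8a 0.84 where it had been 0.42. Without the 2 libraries farthest in Cnp, Mag or Mobp, the corrected values were 0.57, 0.64 and 0.61 in that order. The count of pairs with an adjusted permutation p under 0.05 became 29, and the correlation of Mag and Cnp was 0.92. With the same trend as an offset in edgeR, Ugt8a was lower at 10 months in both genotypes, by a log2 fold change of -0.26 ± 0.08 in KI (adjusted p = 0.0209) and -0.27 ± 0.08 in control cortex (adjusted p = 0.0315), and was called in each, where 15.7% of 19405 genes were called in KI and 6.49% in control cortex. This correction was chosen after the data were seen.

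**Figure D3:**
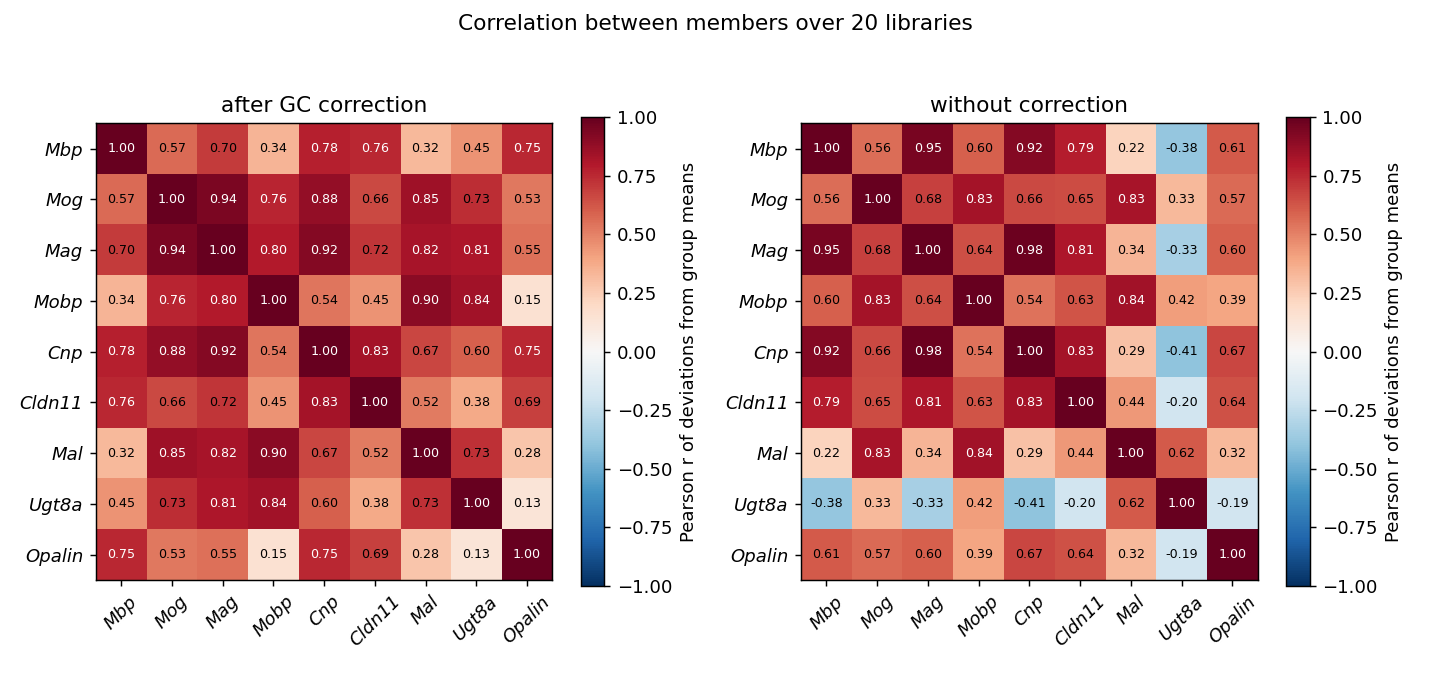
Pearson correlation of each pair of members over 20 libraries, of log2 CPM deviations from the group means, after (left) and without (right) correction of a per-library GC trend. Without correction the row of Ugt8a holds all the negative values, down to -0.41 with Cnp, and after correction every pair is above 0.

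**Figure D4:**
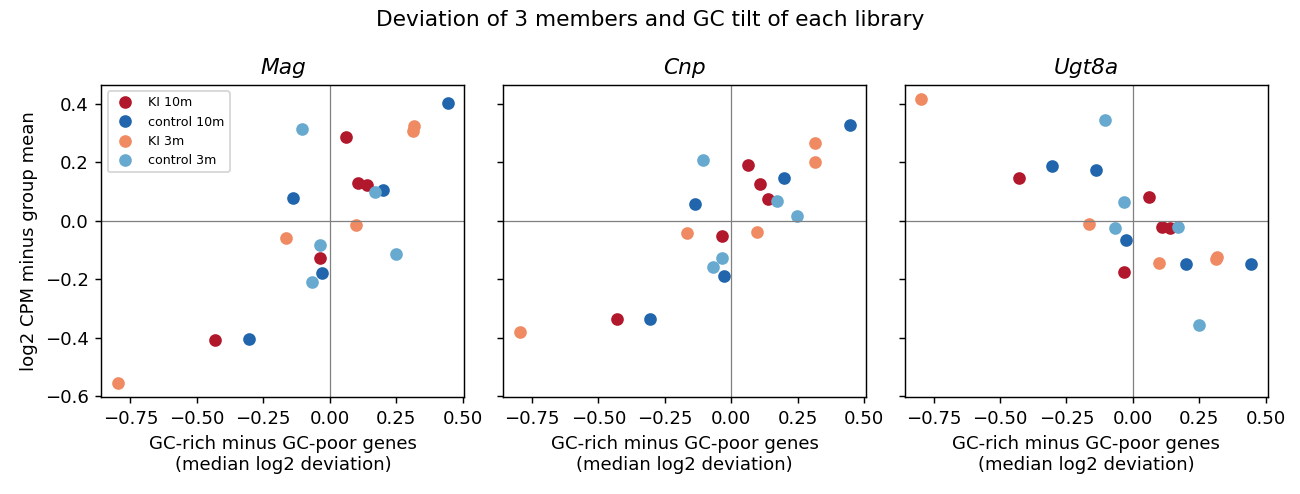
Log2 CPM minus the group mean for Mag, Cnp and Ugt8a in each of 20 libraries (vertical axis), against the GC tilt of the library, the median log2 deviation of GC-rich genes minus that of GC-poor genes (horizontal axis). KI replicate 3 at 3 months, at -0.80, is lowest for Mag and Cnp and highest for Ugt8a.

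The genes most like the members' mean in pattern were sought among 15447 genes outside the 9 with a mean of at least 1 CPM. On all values over 20 libraries they were Sept4 (Pearson r = 0.91), Tmem63a (0.87), Prr18 (0.87), Gjb1 (0.86) and Slain1 (0.84). With group means taken out they were Gjb1 (0.94), which encodes a connexin of oligodendrocyte gap junctions, Slain1 (0.94), Gpr37 (0.91), Tmem125 (0.91) and Sept4 (0.91). Gjb1, Gpr37 and Tmem125 also belong to the list of other mature oligodendrocyte genes. These values are descriptions, and the libraries share depth, base composition and dissection between genes. Sept4 was deposited under a date-like symbol and was matched by identifier.

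**Figure D5:**
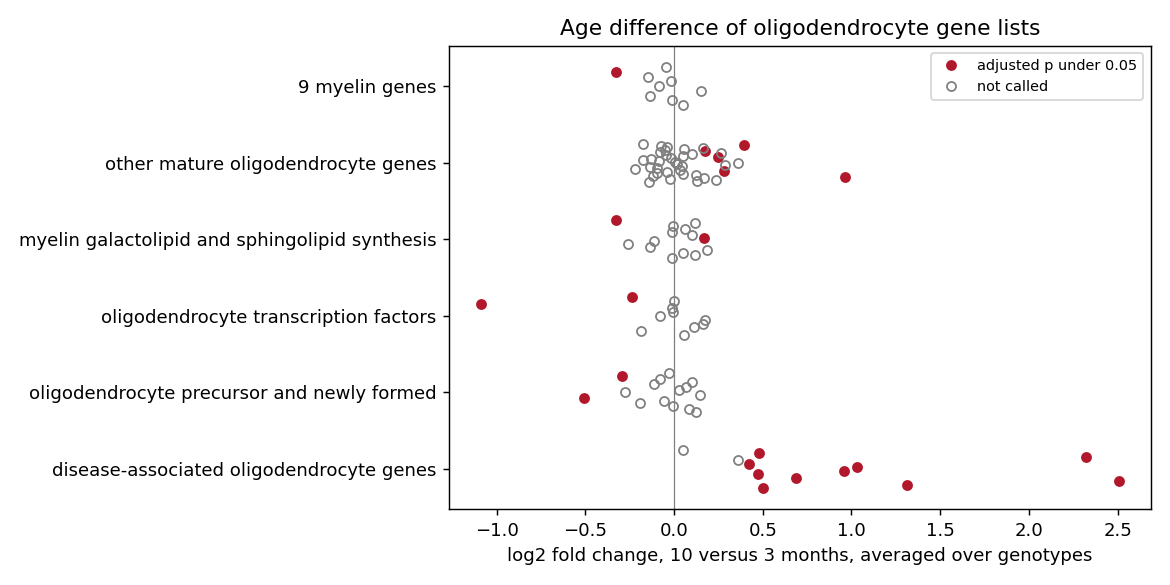
Log2 fold change for 10 versus 3 months averaged over genotypes, with 1 point per gene, for the 9 myelin genes and 5 lists of related genes, where filled points had an adjusted p under 0.05 in edgeR. Ugt8a, at -0.32, appears both among the 9 and in the galactolipid and sphingolipid list, and 10 of 12 disease-associated oligodendrocyte genes lie to the right as called genes.

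Around the 9 genes, lists of related genes were read in the same age contrast averaged over genotypes, where 12.1% of all genes were called. Of 39 other mature oligodendrocyte genes, 5 were called higher and 0 lower, with a median of 0.02. Cd9, a tetraspanin found in several glial and immune cells, rose by 0.96 ± 0.07 on the log2 scale, Trf, the transferrin gene, by 0.39 ± 0.09, Evi2a by 0.28 ± 0.07 and Plekhb1 by 0.25 ± 0.05, all with adjusted p below the threshold in edgeR (2.6e-09, 0.0035, 0.0054 and 0.0031). Of 14 galactolipid and sphingolipid genes, 1 was called higher and 1 lower: Galc, the lysosomal enzyme that degrades galactosylceramide, rose by 0.17 ± 0.05 (adjusted p = 0.0231) where Ugt8a fell. Fa2h, which makes the 2-hydroxy fatty acids of those lipids, had -0.26 ± 0.10 and Elovl1 0.18 ± 0.06, and neither was called (adjusted p = 0.0890 and 0.0528).

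Among 15 tested precursor and newly formed oligodendrocyte genes, 2 were called lower and 0 higher in edgeR. Gpr17, a receptor of newly committed oligodendrocytes, fell by 0.50 ± 0.11 on the log2 scale (adjusted p = 0.0024) and Tmem163 by 0.30 ± 0.06 (adjusted p = 0.0025). Of 11 oligodendrocyte transcription factors, 2 were called lower: Tcf7l2 fell by 1.09 ± 0.21 and Zfp536 by 0.24 ± 0.08. Tcf7l2 also belongs to the thalamic list, of which 12 of 13 genes were called lower in the averaged age contrast. At 10 months the mean centred log2 level of that list was above 0 in 0 of 10 libraries. At 3 months it was above 0 in each of the 5 KI libraries and in 2 of the 5 control libraries, replicates 8 and 10, its highest value being 1.34 in KI replicate 4 at 3 months. Beyond the fits without control replicates 8 and 10, the part of thalamic tissue in the values of the 9 genes was not tested.

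Of 12 disease-associated oligodendrocyte genes, 10 were called higher at 10 months and 0 lower, with a median of 0.59. Serpina3n, a serine protease inhibitor gene, rose by 2.32 ± 0.13, B2m, the light chain of MHC class I, by 1.31 ± 0.09 and Ctsb, which encodes the lysosomal protease cathepsin B, by 0.47 ± 0.04 on the log2 scale. Microglial and astrocyte genes moved with them, 8 of 8 microglial genes and 3 of 8 astrocyte genes being called higher, and the part of those cells in this list was not tested.

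The labels describe male mice, but 1 library, KI replicate 5 at 10 months, had 54206 Xist counts and 1 Ddx3y count, where Xist counts elsewhere lay between 2 and 218. Library totals ran between 42896149 and 57447015 counts, and the lowest count of any member in any library was 663, of Opalin. With KI replicate 5 at 10 months and KI replicate 3 at 3 months both left out, none of the 9 genes was called in any planned contrast, and Ugt8a was called in the averaged age contrast with a log2 fold change of -0.28 ± 0.07 (adjusted p = 0.0136 in edgeR).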

How the data were processed

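Total RNA of cortex was sequenced on an Illumina instrument, per the labels' protocols. The authors deposited 1 table of raw counts with gene lengths. Per the submitters' processing notes the genome was mm10, and the aligner, counter and strand setting are not given in the sources used here. All 37 mitochondrial genes had 0 counts. The 9 genes and all lists were chosen with earlier results of these data known. Counts were tested in R 4.3.3 with edgeR 4.0.16 (filterByExpr, which left 19623 genes, TMM, robust quasi-likelihood F test on 4 group means, 16 residual degrees of freedom, Benjamini-Hochberg adjustment, threshold 0.05). SEs and 95% intervals come from that fit. CPM were scaled by TMM, with a prior count of 2 on the log2 scale. Exact permutation tests used scipy 1.17.1 on CPM. The fits were tested on simulated data. Named outside the 9 were, per list, up to 4 genes of smallest unadjusted p, and the 5 genes of closest pattern.

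Alternatives were RLE scaling, library totals alone, DESeq2 1.42.0, limma-voom (limma 3.58.1), no filter, a filter at 1 CPM on average, only the compared libraries, a replicate block, a threshold of 0.10 and each library left out. Added after the data were seen were the averaged age contrast, the correlations, GC-corrected offsets (GENCODE M21, GC known for 98.9% of tested genes), those offsets with the block, both sets of 2 libraries left out, and the promoter strings. Of 18 pairs of libraries that share a number, 4 correlated above 0.1, the highest being control replicate 8 at 10 and at 3 months (r = 0.40). Pairs without a shared number were not compared, so whether the numbers pair the libraries was not tested. The main fit treated the libraries as unpaired.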

Additional observations from a re-analysis of the deposited data

Results flagged for a closer look

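Ugt8a stood at 70.3 CPM in KI replicate 3 at 3 months, far from the other 4 libraries of its group, which lay between 47.7 and 52.3 CPM. The gap to the nearest library was 0.796 of the group's whole range, above the critical value of 0.71 for 5 samples. It was the 1 such library among 36 groups (9 genes in 4 groups), and chance alone flags about 1 in 20 groups. The same library had the most negative GC tilt, -0.80, and the part of base composition in this value was not tested.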

How the results depend on the processing

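Of 1611 log2 fold changes of the 9 genes recomputed under alternatives, 1604 kept their side of the threshold, 6 passed it and 1 dropped below it. The sign turned in 110 of them, all in values not called in either setting, and 32 of 63 fold changes kept their sign throughout. The count of members called for age in KI was 1 instead of 0 with DESeq2, at a threshold of 0.10, with GC-corrected offsets and with the replicate block and GC offsets together. For age in control it was 1 with GC-corrected offsets and 1 with block and GC offsets together. In each of these the gene was Ugt8a. Over all genes, DESeq2 called 2092 of 19623 for age in KI. GC-corrected offsets called 3046 of 19405 in KI and 1260 in control, and block and GC offsets together called 2424 and 1036. The number at a threshold of 0.10 is not given here. For KI versus control at 10 months the count of members called was 1 under block and GC offsets together, where 0.0464% of genes were called. That member was Mog (log2 fold change 0.52, adjusted p = 0.0441), called in 1 of 21 alternatives, with adjusted p between 0.0441 and 0.858. For age averaged over genotypes the count was 0 without control replicates 8 and 10 at 3 months, and Ugt8a was called in 30 of 31 alternatives. The replicate block alone changed no count: members called stayed 0 in the 6 planned contrasts, and 1 in the averaged age contrast (Ugt8a -0.31, adjusted p = 0.0219). With the block, Mog at 10 months had 0.54 (adjusted p = 0.205). The libraries share only numbers 6 and 7 between genotypes, so this fit leans on few of them. Leaving out each library in turn left every count of members as it was. The cause of the other changes was not tested.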
